A study of Bos taurus with 8 samples.

Results

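The enzymes that make and break down prostaglandins were followed through 10 genes measured on bovine expression arrays: PTGS1, PTGS2, PTGES, PTGES2, PTGES3, PTGDS, PTGIS, TBXAS1, AKR1B1 and HPGD. Members were chosen by gene name, as every non-control probe that carries one of these symbols in the scanner files or through its transcript accession. All 10 genes were found, out of 16911 gene symbols on the array, on 29 of its 51282 probes. The study compared 4 samples labelled non-pregnant with 4 labelled pregnant, 1 array each. Every sample is labelled as female fetal cotyledon, which is the part of the ruminant placenta that the fetus contributes. The labels describe the non-pregnant samples as taken before pregnancy and the pregnant ones as taken after it, yet the protocol says that gravid uteri of buffalo from a slaughterhouse were used for all. The organism field names cattle, so the probes are cattle sequences and the RNA is buffalo RNA as far as the protocol goes. Breed, age, stage of pregnancy, and whether the samples of a group came from separate animals are not given in the labels. The p-values below therefore measure the spread between these samples, which may be technical.

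Prostaglandins are lipid signals made on demand. Phospholipases free arachidonic acid from membranes, the cyclooxygenases PTGS1 and PTGS2 turn it into the unstable prostaglandin H2, and a terminal enzyme then decides the product: prostaglandin E2, D2, F2 alpha, prostacyclin or thromboxane. HPGD starts their inactivation. In ruminants these lipids are known for their roles in luteolysis, in the contact between uterus and placenta, and in labour.

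All 8 arrays lie on 1 slide, with the non-pregnant-labelled arrays in its first row and the pregnant-labelled arrays in the other, so row and group cannot be told apart. The share of probes above background ran from 63.7% to 69.5% in the non-pregnant group and from 60.6% to 66.0% in the pregnant group (exact permutation p = 0.257). On the log2 scale, the 75th percentile used for scaling ran from 10.19 to 10.81 in the first group and from 9.64 to 10.40 in the second, a difference of -0.48 that the scaling removes (exact permutation p = 0.0857). Both p-values are from exact two-sided permutation tests, whose lowest possible p here was 0.0286. Arrays correlated at 0.957 to 0.987 within the labelled non-pregnant group, at 0.943 to 0.989 within the labelled pregnant group, and at 0.736 to 0.783 between groups. The tissue label was checked with marker genes, and the pregnant-labelled arrays went against it, while the others were bright for trophoblast markers. All 14 tested trophoblast markers were lower in the pregnant-labelled arrays, where CYP11A1, CDX2 and PLAC1 were well above background on 0 of 4 arrays. Of 12 tested endometrial markers 9 were higher and 1 was lower there, with PGR well above background on 1 of 4 non-pregnant-labelled arrays, and ESR1 and HOXD10 on 0 of 4. Groups are therefore named by label only, as pregnant-labelled and non-pregnant-labelled arrays. Whether the labels of the groups were exchanged was not tested, and every difference given here would turn its sign if they were.

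Of the 10 genes, 6 were higher in the pregnant-labelled arrays, 1 was lower and 3 did not pass the test. PTGS1, PTGS2, PTGDS, PTGES, TBXAS1 and HPGD were the higher ones, and AKR1B1 the lower one. The call rule is an adjusted p below 0.05 in a limma fit over 34627 probes, with a gene read from its brightest tested probe. By that rule 62.8% of all 13197 tested genes were called, 29.9% higher and 32.9% lower, so 7 of 10 is near the background. The members' median log2 difference was 1.55, against -0.03 over all genes. The 2 groups did not overlap for 7 members, 6 of them higher and 1 lower, where the share over all genes was 60.3% (28.4% higher and 31.9% lower). A difference of at least 2-fold with a call was seen in 7 members and in 48.2% of all genes. The direction of such counts moves with the scaling of the arrays. With the array median subtracted instead, 6 members were higher and 2 lower, while 34.9% of all calls were higher in place of 47.6%. Without scaling, 4 were higher and 2 lower, with 31.7% of all calls higher. In bulk tissue, fewer cells of a type and less RNA per cell cannot be told apart.

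**Figure D1:**
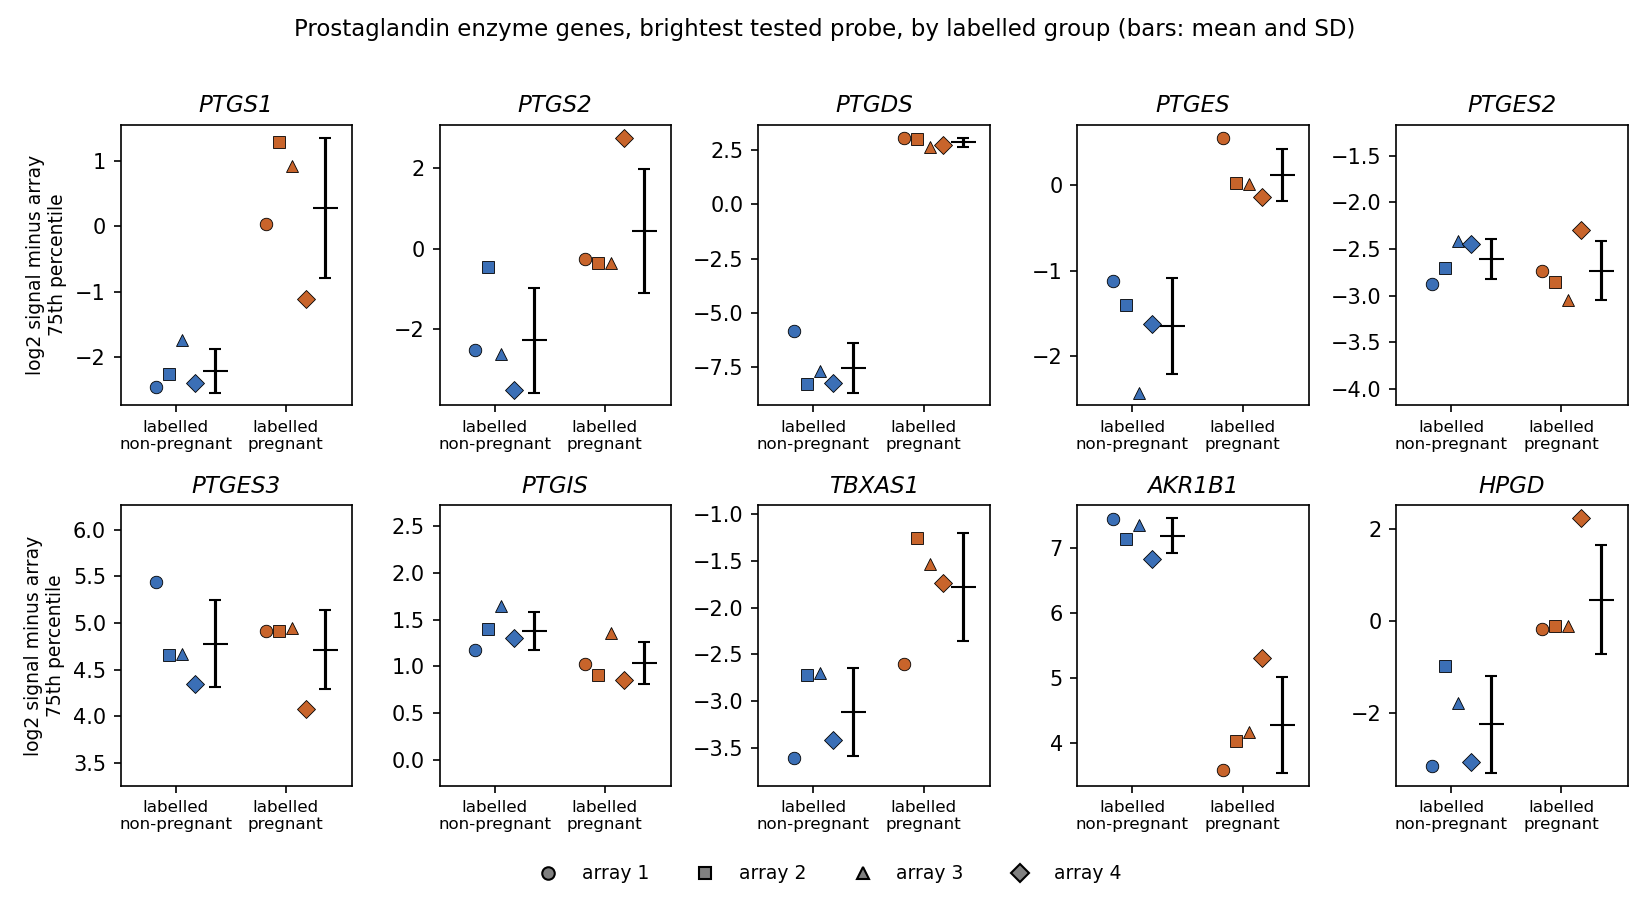
Level of each of the 10 genes on every array, as the log2 signal of its brightest tested probe relative to that array's 75th percentile; points are arrays, 4 per group, and bars are the group mean and SD. PTGDS shows the widest gap, AKR1B1 is the only called gene that is lower in the pregnant-labelled arrays, and 1 pregnant-labelled array lies above the others for PTGS2 and HPGD.

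Levels below are log2 signals relative to the 75th percentile of the same array, given in the order of replicates 1 to 4, and differences are labelled pregnant minus labelled non-pregnant with the standard error (SE) of the fit. A probe is named by the transcript base at which it starts, and coordinates are those of the build Btau_3.1 in the scanner files. For exons, introns and UTRs, the place of each probe was not analysed here.

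PTGS1 is the cyclooxygenase that many tissues make all the time. It was 5.65-fold higher in the pregnant-labelled arrays. Its probe at base 2535 (chr11:96356831-96356890, minus strand) read -2.45, -2.26, -1.73 and -2.40 on the non-pregnant-labelled arrays and 0.04, 1.29, 0.93 and -1.11 on those labelled pregnant. The groups did not overlap, and pregnant-labelled array 4 lay nearest to the other group. The difference was 2.50 (SE 0.48, adjusted p = 0.00195). The probe at base 1571 gave a smaller difference of 0.69 (SE 0.27, adjusted p = 0.0504), with overlapping groups. Its coordinates (chr11:96356791-96356825, minus strand) span 35 bases for a probe of 60. They lie downstream of the probe at base 2535, which does not match its transcript base. Within each array the first probe exceeded the second by 1.89 to 2.74 in the non-pregnant-labelled arrays and by 3.19 to 4.59 in those labelled pregnant, so the probes of PTGS1 disagreed about the size of the change. Another probe, at base 625, was not well above background on any of the 8 arrays.

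PTGS2 is the inducible cyclooxygenase, known for its sharp rise in uterus and placenta around labour. It was 6.56-fold higher in the pregnant-labelled arrays, with the widest error of the 10 genes. Its probe at base 3314 (chr16:65512180-65512239, minus strand) gave the only tested reading of the gene, and its first 30 bases are shown beside a probe nearer the start of the transcript that was dim.
PTGS2 base 3314, first 30 bases: tgttaaatatctgaatgactgaatctggga
PTGS2 base 597: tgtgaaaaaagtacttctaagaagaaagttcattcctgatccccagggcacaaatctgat
The levels at base 3314 were -2.52, -0.45, -2.63 and -3.51 on the non-pregnant-labelled arrays and -0.26, -0.37, -0.37 and 2.75 on those labelled pregnant. Only 0.08 separated the highest array of the first group from the lowest of the second, and array 4 lay 3.08 above the mean of the other 3 of its group. The difference was 2.71 (SE 0.84, 95% interval 0.80 to 4.63, adjusted p = 0.0210). Without pregnant-labelled array 4 it was 1.94 (adjusted p = 0.0269). The call was lost without non-pregnant-labelled array 3 (2.60, adjusted p = 0.0514) or array 4 (2.30, adjusted p = 0.0559), and without scaling (2.23, adjusted p = 0.0655). The probes at bases 597 and 807 were each well above background on 1 of 4 pregnant-labelled arrays and on 0 of 4 labelled non-pregnant, and were not tested.

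PTGDS, the lipocalin-type prostaglandin D synthase, showed the largest difference of the 10 genes. It was close to the array background in the non-pregnant-labelled arrays and bright in all those labelled pregnant. Both of its probes, on chromosome 11, are shown because both were dim in the same group.
PTGDS base 278: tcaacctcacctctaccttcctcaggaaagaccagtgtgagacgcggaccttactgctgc
PTGDS base 540: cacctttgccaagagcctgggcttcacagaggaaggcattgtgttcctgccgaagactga
The probe at base 540 (chr11:109312713-109313379, minus strand) read -5.85, -8.30, -7.70 and -8.25 on the non-pregnant-labelled arrays, where it was well above background on array 1 only, and 3.06, 3.02, 2.66 and 2.72 on those labelled pregnant. The spread within the labelled pregnant group was small beside the gap between groups. The fitted difference was 10.39 (SE 0.50). Its size rests on near-background signal on 3 of the 4 non-pregnant-labelled arrays, and the normexp background correction gave 7.07. The 4 pregnant-labelled arrays alone would carry the probe past the filter on dim probes, so no p-value is given. The gene's place among the higher ones has the same limit. The probe at base 278 (chr11:109314130-109314295, minus strand) read -8.21, -7.22, -6.53 and -6.96 against 0.85, 0.71, 0.24 and 0.40, and was well above background on 0 of 4 non-pregnant-labelled arrays. Its change is therefore a bound, at least 179.8-fold higher. The probe passed the filter on dim probes through the pregnant-labelled arrays alone, so no p-value is set beside the bound. The bound sets the mean of the bright group against the mean of, per array of the dim group, the higher of the probe's own signal and the lowest signal well above background. Over 18 alternative settings, the average of both probes (9.08) included, the gene's difference ran from 7.07 to 10.95.

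PTGES, the microsomal prostaglandin E synthase often coupled to PTGS2, was 3.39-fold higher in the pregnant-labelled arrays by its brightest probe. That probe, at base 797 (chr11:103800389-103800448, minus strand), read -1.12, -1.40, -2.43 and -1.63 against 0.56, 0.03, 0.02 and -0.14. Every pregnant-labelled array lay above every labelled non-pregnant one, and the difference was 1.76 (SE 0.30, adjusted p = 0.000984). A twin probe at the same place differs from it by 2 substitutions, A10C and A59C, with positions counted from the probe's 5′ end and the dimmer twin's base first. The first 30 bases of both are shown, with the base at position 10 in capitals.
PTGES base 797, dimmer twin: ttttggaacAtaacgaccttctgaatccag
PTGES base 797, brighter twin: ttttggaacCtaacgaccttctgaatccag
The brighter twin exceeded the other by 0.91 to 1.04 on the non-pregnant-labelled arrays and by 0.92 to 1.14 on those labelled pregnant. The twins thus differed in level but gave the same contrast, the dimmer one a difference of 1.75 (SE 0.31, adjusted p = 0.00129). The probe at base 623 (chr11:103800563-103800622, minus strand), whose first 30 bases are shown because it did not follow them, gave 0.22 (SE 0.49, adjusted p = 0.720).
PTGES base 623, first 30 bases: tgtgtgtttccccgtgtgtcccttggattc
It read -0.92, -1.16, -3.23 and -1.35 against -0.89, -1.65, -1.74 and -1.51, and the groups overlapped. Within each array, the brighter twin minus this probe ran from -0.28 to 0.80 in the non-pregnant-labelled arrays and from 1.37 to 1.76 in those labelled pregnant. Which of the probes reports the gene's level was not tested.

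PTGES2 and PTGES3, the other prostaglandin E synthases, did not pass the test. PTGES2 is a membrane-associated enzyme, and PTGES3 is better known as p23, a partner of the chaperone HSP90. PTGES2 at base 1323 (chr11:102321928-102321987, minus strand) read -2.87, -2.70, -2.41 and -2.45 against -2.73, -2.85, -3.04 and -2.30. The groups overlapped, with a difference of -0.12 (SE 0.22, 95% interval -0.61 to 0.37, adjusted p = 0.641). Its other probes gave 0.68 (adjusted p = 0.247) and 0.20 (adjusted p = 0.664). PTGES3 at base 1569 (chr5:61347966-61348025, plus strand) read 5.44, 4.66, 4.67 and 4.35 against 4.91, 4.91, 4.95 and 4.08. Its difference was -0.06 (SE 0.30, 95% interval -0.74 to 0.61, adjusted p = 0.870), and its other probe gave -0.43 (adjusted p = 0.220). Neither gene has a settled sign. Over 19 alternatives, none of which brought a call, PTGES2 ran from -0.61 to 0.25 and turned positive with one other scaling and with its probes averaged. PTGES3 ran from -0.55 to 0.51 and turned positive with other scalings and without non-pregnant-labelled array 1 (0.16) or pregnant-labelled array 4 (0.15).

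PTGIS, the prostacyclin synthase of vessel walls and smooth muscle, gave different answers by probe. Its brightest probe, at base 2109 (chr13:78604503-78604562, minus strand), read 1.17, 1.40, 1.64 and 1.30 against 1.02, 0.91, 1.36 and 0.85. The groups overlapped and the difference was -0.34 (SE 0.19, 95% interval -0.78 to 0.09, adjusted p = 0.153). With the array median as the scale it became a call, at -0.73 (adjusted p = 0.0184), as it did without scaling, at -0.83 (adjusted p = 0.0245). The probe at base 336 (chr13:78637144-78637203, minus strand) went the other way with a call, and is shown with the probe at base 1594, which was not called.
PTGIS base 336: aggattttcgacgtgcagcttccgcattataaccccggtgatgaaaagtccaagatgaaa
PTGIS base 1594, first 30 bases: aacatccaacggttccagcattgccccttc
At base 336 the levels were -5.18, -5.32, -4.29 and -4.70 against -2.79, -2.99, -2.21 and -3.25. No array of one group reached the other, and the difference was 2.06 (SE 0.31, adjusted p = 0.000414). Within each array, base 336 minus base 2109 was -6.72 to -5.93 in the non-pregnant-labelled arrays and -4.10 to -3.56 in those labelled pregnant. The probes at bases 1594 and 1263 gave 0.07 (adjusted p = 0.816) and 0.33 (adjusted p = 0.510). Averaging all 4 tested probes turned the sign of the gene's difference to 0.53, without a call.

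TBXAS1, the thromboxane synthase of platelets and macrophages, was 2.52-fold higher in the pregnant-labelled arrays. Its probe at base 1765 (chr4:107151425-107151484, plus strand) read -3.61, -2.72, -2.70 and -3.42 against -2.60, -1.25, -1.53 and -1.73. The groups did not overlap, though pregnant-labelled array 1 lay close to the other group, and the difference was 1.34 (SE 0.34, adjusted p = 0.00855). The call was lost without scaling, at 0.85 (adjusted p = 0.122). A second probe, at base 1806 (chr4:107151469-107151528, plus strand), begins in the last 16 bases of the first, shown in capitals at the end of that probe's last 30 bases.
TBXAS1 base 1765, last 30 bases: tgttaaaacaccacCGAAGCAGTTGAAAGC
Although they share those bases, the second probe gave a larger difference of 2.95 (SE 0.33, adjusted p = 7.47e-05). It read -5.69, -5.34, -5.73 and -4.30 against -2.52, -1.95, -2.43 and -2.34, and was well above background on 3 of 4 non-pregnant-labelled arrays. Of 11 tested macrophage markers, 7 were higher and 2 lower in the pregnant-labelled arrays, beside 29.9% and 32.9% of all genes. Their summed relative signal was 102 to 144 in the non-pregnant-labelled arrays and 36.6 to 134 in the others. Such sums follow the brightest genes and do not measure cell numbers. Here CSF1R and AIF1, the 2 lower ones, were brightest in the non-pregnant-labelled arrays, with means of 5.99 and 5.43. Of 5 tested platelet markers 3 were lower and 0 higher, with sums of 0.713 to 1.26 and 0.113 to 0.297, and PPBP and GP1BA were well above background on 0 of 4 pregnant-labelled arrays. The part of these cells in the TBXAS1 result was not tested.

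**Figure D2:**
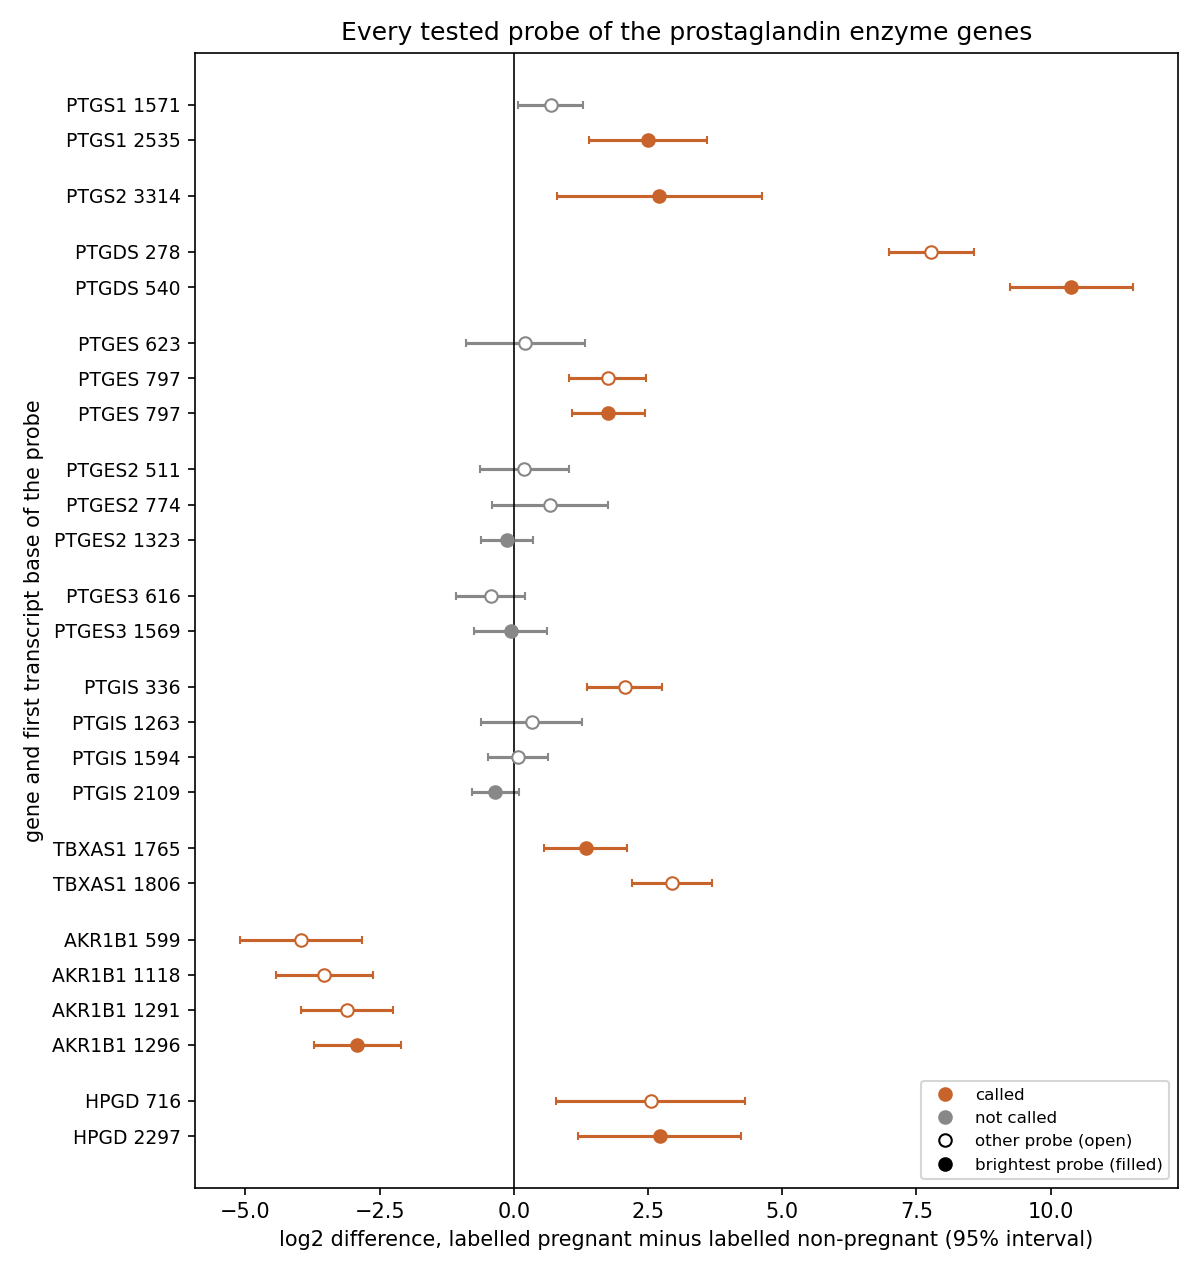
Log2 difference of each tested probe of the 10 genes, labelled pregnant minus labelled non-pregnant, with its 95% interval from the limma fit; probes are named by gene and first transcript base. Probes of AKR1B1 and PTGDS lie together on one side of 0, while those of PTGES spread from 0.22 to 1.76. Those of PTGIS lie on both sides of 0, from -0.34 to 2.06.

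AKR1B1, aldose reductase, is known in the bovine uterus as an enzyme that makes prostaglandin F2 alpha. It was the only one of the 10 genes called lower, 7.53-fold, in the pregnant-labelled arrays. At base 1296 (chr4:101752306-101752363, minus strand) it read 7.44, 7.13, 7.35 and 6.83 against 3.59, 4.03, 4.17 and 5.31. The pregnant-labelled arrays all lay below the others, with array 4 the highest of them, and the difference was -2.91 (SE 0.36, adjusted p = 0.000127). The probe at base 599 (chr4:101757615-101757674, minus strand) is shown because it lies well upstream and was lower too.
AKR1B1 base 599: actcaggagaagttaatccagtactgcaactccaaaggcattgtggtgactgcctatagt
It read from 3.62 to 4.89 in the non-pregnant-labelled arrays and from -0.69 to 1.59 in the others, a difference of -3.97 (SE 0.50, adjusted p = 0.000154). The probes at bases 1118 and 1291 gave -3.53 (adjusted p = 8.05e-05) and -3.10 (adjusted p = 0.000126), so all 4 tested probes were called in the same direction. Those at bases 1291 and 1296 overlap over most of their length and are nearly 1 reading. Over 19 alternatives the gene's difference stayed between -3.40 and -2.64. A probe of another transcript record, at base 23, was well above background on 2 of 4 non-pregnant-labelled arrays and on 0 of 4 labelled pregnant, and was not tested. The summed relative signal of the trophoblast markers was also lower in the pregnant-labelled arrays, at 1.99 to 9.40 against 1015 to 1489. That of fetal blood was 2.15 to 4.07 against 338 to 605. Within the pregnant-labelled group, array 4 read highest for AKR1B1 yet had the lowest trophoblast sum (2.0 against 7.1 to 9.4). Its fetal blood sum was the highest (4.1 against 2.2 to 2.5). The part of trophoblast and fetal blood in the AKR1B1 result was not tested.

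HPGD, the dehydrogenase that begins prostaglandin inactivation, was 6.58-fold higher in the pregnant-labelled arrays. At base 2297 (chr8:6726889-6726948, minus strand) it read -3.15, -0.98, -1.78 and -3.07 against -0.17, -0.10, -0.10 and 2.25. The groups did not overlap, and array 4 again lay above its group, by 2.38. The difference was 2.72 (SE 0.67, adjusted p = 0.00706), and 2.12 without that array (adjusted p = 0.00768). The probe at base 716 gave 2.55 (SE 0.78, adjusted p = 0.0195), with groups that overlapped and a signal well above background on 2 of 4 non-pregnant-labelled arrays. It is shown as the second reading of the gene.
HPGD base 716: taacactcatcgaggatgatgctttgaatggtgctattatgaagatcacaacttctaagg

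Pregnant-labelled array 4 stood off from its group in several of these genes at once. It was above the mean of the other 3 for PTGS2 by 3.08, for HPGD by 2.38 and for AKR1B1 by 1.38. For PTGS1 it was -1.86 relative to that mean, and for PTGES3 -0.84. It correlated with the other arrays of its group at 0.943 to 0.951. Marker genes set it apart as well. It was the lowest of its group for all 11 tested macrophage markers, with a summed relative signal of 36.6 against 103 to 134 on the other 3, and for all 11 leukocyte markers (45.1 against 78.7 to 110). Of 12 endometrial markers it was the lowest for 8 and the highest for 4 (157 against 253 to 267). Their part in its values for the 10 genes was not tested. Leaving it out kept the same number of members called, 6 higher and 1 lower.

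Taking all probes of the 10 genes, 25 of 29 were tested and 15 were called, beside 59.4% of all tested probes. Probes of 1 gene share a transcript and are no replicates of the condition.

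**Figure D3:**
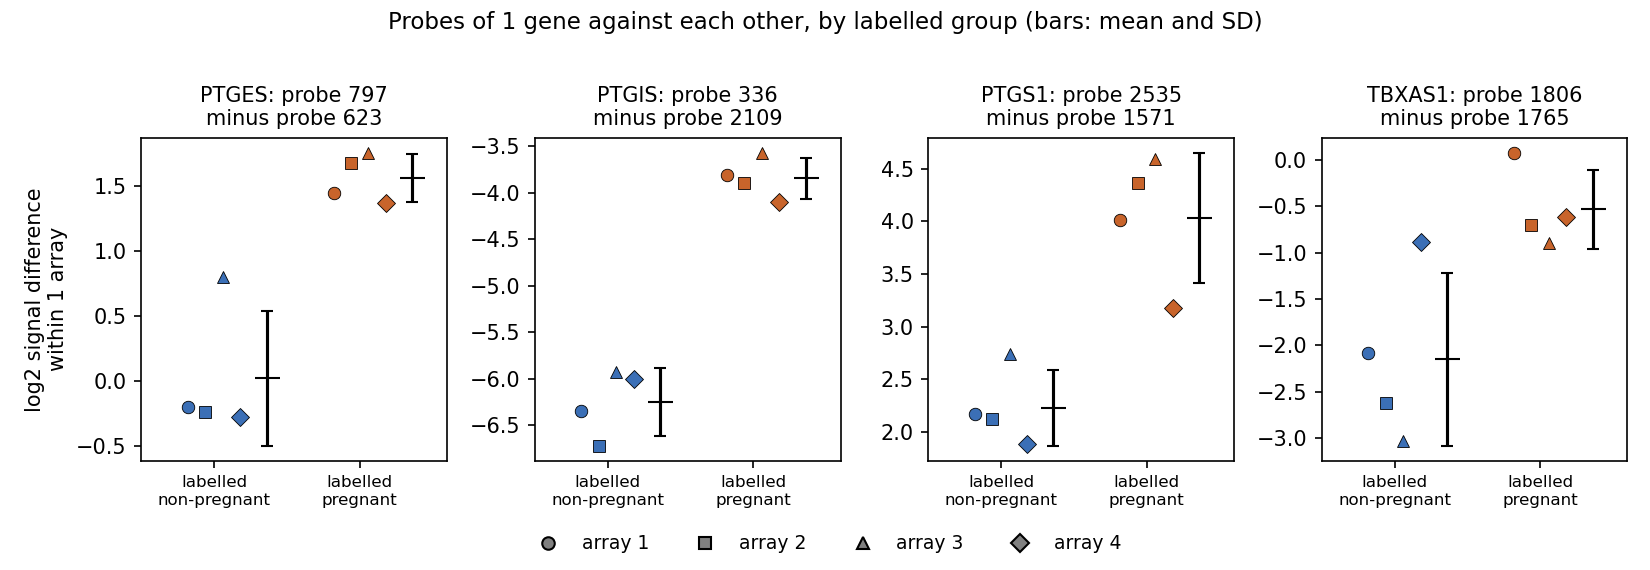
Difference in log2 signal between 2 probes of 1 gene within each array, by labelled group; points are arrays, bars are the mean and SD, and probes are named by first transcript base. The PTGES, PTGIS and PTGS1 pairs show groups that do not overlap, while in the TBXAS1 pair the groups overlap.

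Genes around the supply of arachidonic acid moved in both directions. In this list of phospholipases and related genes, 14 of 22 on the array were tested. Of these, 4 were higher and 6 lower, with a median difference of -0.52, against -0.03 over all genes. Not all of them free arachidonic acid: LPCAT3 (-2.23) and ANXA1 (-1.25) were among the lower, and ACSL4 (0.70) among the higher. The counts are therefore no measure of supply. Beside this list and those that follow stands the share over all genes, 62.8% called, 29.9% higher and 32.9% lower. PLA2G15, a lysosomal phospholipase, was lower by the widest margin, at -5.25 (SE 0.23). FAAH, which degrades anandamide, and PLD1, a phospholipase D, were lower at -3.43 (SE 0.21) and -2.46 (SE 0.27). PLA2G4A, the cytosolic phospholipase that frees arachidonic acid for the cyclooxygenases, was higher at 2.32 (SE 0.54), with array 4 the highest at 3.76.

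Among 8 other terminal synthases and reductases, 4 were higher and 2 lower, near the 62.8% called over all genes, with a median of 1.80. GSTM3, a glutathione transferase, was higher at 5.32 (SE 0.40), CBR3, a carbonyl reductase, at 2.95 (SE 0.21) and PRXL2B, a prostamide and prostaglandin F synthase, at 2.74 (SE 0.27). HPGDS, the haematopoietic prostaglandin D synthase of mast cells and other leukocytes, was higher at 3.30 (SE 0.46) and well above background on 1 of 4 non-pregnant-labelled arrays. The 2 lower genes were CBR1, at -1.93 (SE 0.46), and AKR1A1, at -1.73 (SE 0.34). AKR1C3 and AKR1C4 did not pass the test, at -0.69 and 0.85. Of 4 tested mast cell markers 1 was higher and 1 lower, and of 11 tested leukocyte markers 9 were higher, with sums of 9.42 to 19.3 in the non-pregnant-labelled arrays and 45.1 to 110 in the others. Their part in the HPGDS and PTGDS results was not tested. The endometrial markers had sums of 34.1 to 48.8 in the non-pregnant-labelled arrays and 157 to 266 in the others. Their brightest gene was MSX1, called lower, in the non-pregnant-labelled arrays (mean 4.99) and GRP in the others (mean 7.07). These sums, too, follow the brightest genes.

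All 5 other inactivating enzymes on the array were called, 2 higher and 3 lower, where 62.8% of all genes were called. CYP4A11 and CYP4A22, fatty acid hydroxylases, were lower at -6.20 (SE 0.45) and -1.98 (SE 0.31). PTGR2, a prostaglandin reductase, was lower at -1.40 (SE 0.17), and PTGR3, its relative, was higher at 0.92 (SE 0.21). With the array median as the scale, or with no scaling, 3 of the 5 were called.

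Receptors and carriers moved in both directions, with 5 higher and 3 lower of 9 tested and a median of 1.27, beside 29.9% higher and 32.9% lower over all genes. The E2 receptor PTGER2 was higher, at least 19.5-fold, and the D2 receptor PTGDR at least 27.1-fold, since neither was well above background on any non-pregnant-labelled array. The E2 receptor PTGER3 was lower at -5.77 (SE 0.31) and the uptake carrier SLCO2A1 at -4.30 (SE 0.34), each well above background on 1 of 4 pregnant-labelled arrays. PTGFR, the receptor for prostaglandin F2 alpha, was lower at -2.88 (SE 0.65), with a signal well above background on 2 of 4 pregnant-labelled arrays, and is named here after its value was seen. So is PTGER4, another E2 receptor, which was higher at 3.05 (SE 0.36). In the set of 50 tested genes from the pathway lists, leukotriene branch included, 21 were higher, 17 lower and 12 did not pass the test, with a median of 0.46. Over all genes 62.8% were called.

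**Figure D4:**
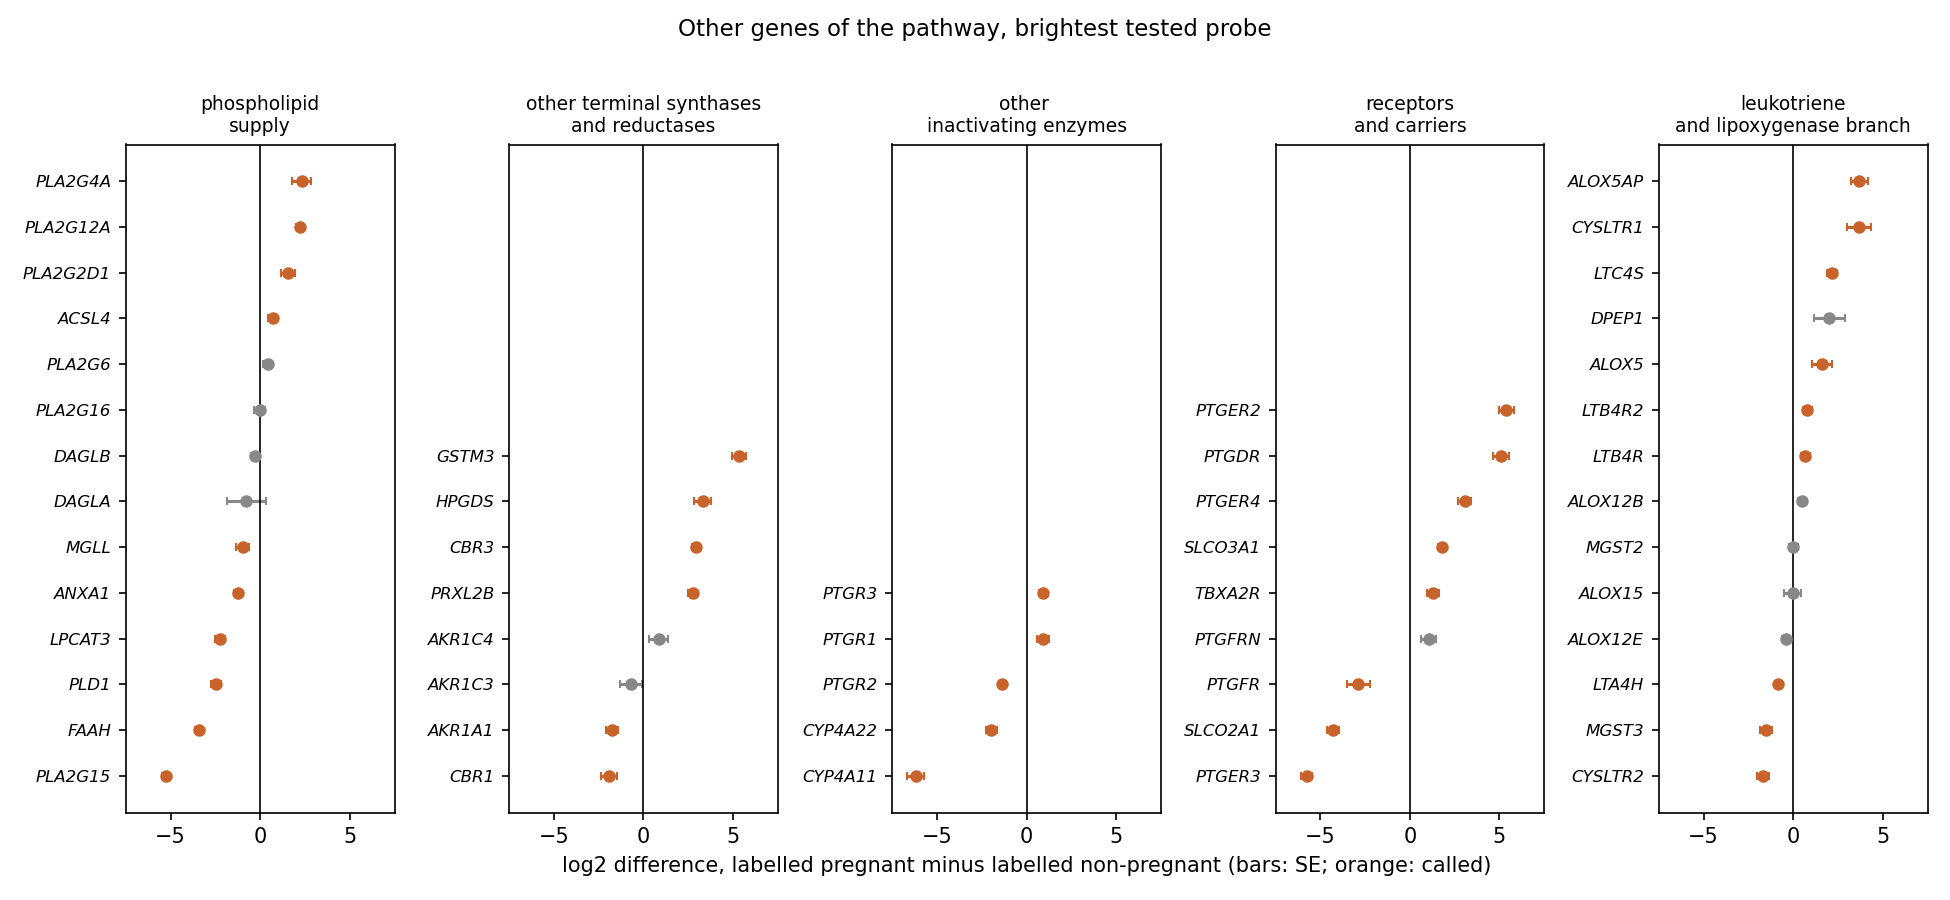
Log2 difference of each tested gene in the pathway lists, labelled pregnant minus labelled non-pregnant, with bars for the SE and called genes in orange; PTGER2 and PTGDR are drawn at their fitted differences, not at their bounds. Each list holds genes on both sides of 0, from PLA2G15, CYP4A11 and PTGER3 far below it to GSTM3 and PTGER2 far above it.

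Markers of vessel and muscle cells, where PTGIS is known to be made, were also read. The share over all genes was 62.8% called, 29.9% higher and 32.9% lower. Of 11 tested endothelial markers 5 were higher and 1 lower, with sums of 16.9 to 19.9 in the non-pregnant-labelled arrays and 38.0 to 62.7 in the others. Of 9 tested smooth muscle markers 5 were higher and 0 lower (14.4 to 20.7 against 35.1 to 48.7), and of 8 stromal markers 4 were higher and 0 lower (133 to 266 against 350 to 545). Their part in the PTGIS results was not tested.

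The genes whose levels followed PTGDS most closely over the 8 arrays were FAM167B (Pearson r = 0.998), AQP1 (0.997) and HOXD10 (0.995). Those most like AKR1B1 were CYB5B (0.999), ADTRP (0.998) and DBT (0.998). All share the 8 arrays and the 2 groups, and 71 genes for PTGDS and 51 for AKR1B1 exceeded 0.99. By the coordinates in the files, 4 of the 10 genes, PTGDS, PTGES, PTGES2 and PTGS1, lie on chromosome 11, and AKR1B1 and TBXAS1 lie on chromosome 4. The 4 on chromosome 11 did not move together, since PTGES2 did not pass the test and the others were higher.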

How the data were processed

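Total RNA of 8 samples was hybridised to one-colour Agilent arrays, 1 each. Spot intensity values, as deposited, were written by Agilent Feature Extraction 11.5.1.1 under protocol GE1_1105_Oct12, per the file headers, with local background and a spatial trend subtracted. The log2 table of the authors followed log2 processed intensity at r = 0.999 or above. What scale and centring it has was inferred from its values, and its column medians were -4.21, -4.01, -4.00 and -3.77 (labelled non-pregnant) and -3.56, -3.61, -3.64 and -3.61 (labelled pregnant). Its column 75th percentiles were all near 0, at most 0.0015 in size, so its centring is nearly the one used here. As an alternative setting it is therefore close to the main one. Here, log2 processed intensity minus each array's 75th percentile was used, without control spots (1319 per array) and 119 flagged spots. Spots of a probe were averaged. The test covered 34627 of 51282 probes, those flagged well above background on 4 or more of 8 arrays, and used limma 3.58.1 in R 4.3.3 (lmFit, eBayes, no covariates, Benjamini-Hochberg, threshold 0.05). The script was tested on simulated data. Names came from the files and a RefSeq table (assembly ARS-UCD2.0), which matched 28112 probes by accession. All members were named, and from each pathway list up to 4 called genes with the largest difference. Some other genes of these lists are named as well. The members and lists were chosen with earlier results of these data known. The number of arrays, 4 per group, limits the precision. Alternatives covered background correction, scaling, the filter on dim probes, the authors' table, a replicate block, left-out arrays and averaging probes.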

Additional observations from a re-analysis of the deposited data

Results flagged for a closer look

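In 4 of the 50 groups of 4 arrays checked, over the tested member probes, 1 array lay apart by Dixon's test at the 95% level, where chance alone marks about 5% of groups. All 4 concerned pregnant-labelled array 4. HPGD at base 2297 read 2.25 there, PTGS2 at base 3314 read 2.75, and PTGES3 at base 1569 read 4.08, while the PTGES2 probe at base 774 read -4.07, above the other 3 arrays of its group. The same array holds all 4 values, so they are not separate signs.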

How the results depend on the processing

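Of 550 values over 19 alternative settings, 516 kept their direction and side of the threshold (counts: stayed within 1.5 times), 6 lost a call, 2 gained one, 8 turned their sign and 18 moved. The 8 belong to genes without a call in either setting: PTGES2 with the percentile over detected probes (0.041) and with averaged probes (0.25), PTGIS with averaged probes (0.53), and PTGES3 with the percentile over detected probes (0.10), with quantile normalization (0.51), without non-pregnant-labelled array 1 (0.16), without pregnant-labelled array 4 (0.15) and without the pair of arrays named next (0.11). Leaving out 1 array at a time gave PTGES3 -0.21 to 0.16. PTGS2 lost its call without scaling (2.23), with the replicate block (2.71, adjusted p = 0.0512) and without both non-pregnant-labelled array 3 and pregnant-labelled array 4 (1.82, chosen after seeing the data), and leaving out 1 array at a time gave 1.94 to 3.32. TBXAS1 lost its call without scaling (0.85), and PTGIS gained one with the median scale (-0.73) and without scaling (-0.83). Under both of these scalings 2 members were lower in place of 1, and 3 other inactivating enzymes were called in place of 5. With the strict filter 4 receptors and carriers were called in place of 8, and PTGDS was not tested. Whether replicate numbers pair the samples was not settled by correlating the arrays' deviations from their group means. Same-numbered arrays gave 0.009, 0.075, 0.050 and 0.155, all low. Arrays 2, 3 and 4 of each group correlated best with their own number, and array 1 of each did not. Values this low can neither establish nor exclude a pairing. The replicate block called 8047 genes in place of 8282. The median of all genes shifted to -0.41 with the median scale, -0.51 without scaling, 0.14 with the percentile over detected probes and 0.23 without the filter. A slide block was not run, since all arrays share 1 slide. Dim probes, with signal near background on most arrays of a group, limit PTGDS, PTGS1 and PTGS2 to few readings.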

Other observations

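The leukotriene and lipoxygenase branch, which uses the same arachidonic acid, had 14 tested genes, of which 6 were higher and 3 lower in the pregnant-labelled arrays, with a median difference of 0.59. Over all genes 62.8% were called, 29.9% higher and 32.9% lower. ALOX5AP, the partner of the lipoxygenase ALOX5, was higher at 3.70 (SE 0.46), and LTC4S, the leukotriene C4 synthase, at 2.17 (SE 0.30). The receptors for cysteinyl leukotrienes went opposite ways: CYSLTR1 was higher at 3.67 (SE 0.69; well above background on 2 of 4 non-pregnant-labelled arrays) and CYSLTR2 was lower at -1.66 (SE 0.34; well above background on 1 of 4 pregnant-labelled arrays).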
